A study of Mus musculus with 32 samples.

Results

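The 10 genes of fatty acid synthesis and its control were described in mouse testis, spleen, liver and lung: Thrsp, Me1, Fasn, Acaca, Acacb, Acly, Scd1, Elovl6, Srebf1 and Pnpla3. They were listed by name from what they are known to do, but with earlier results of these data known. Each was represented by its brightest probe over all 32 arrays. A probe named for the gene was found for 8 of the 10, out of 16593 genes with a named probe; Acacb and Pnpla3 were not analysed here. The study gave male NIH Swiss mice, 7 weeks of age, 1 intravenous dose of CBL0137, a curaxin that binds DNA and traps the histone chaperone FACT on chromatin, or of its vehicle, a 5% dextrose solution. The doses were 30, 60 and 90 mg/kg, and the organs were taken 24 hours later. RNA of each whole organ was hybridised to an Illumina BeadChip, with 4 organs and 4 dose levels making 16 groups of 2 arrays. Nothing in the labels shows that the 2 arrays stand for different mice. The p-values therefore measure only the spread between these arrays, which may be technical.

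Fatty acid synthesis turns surplus carbohydrate into fat, mainly in liver and adipose tissue. Citrate is cleaved to acetyl-CoA by Acly, acetyl-CoA is carboxylated to malonyl-CoA by Acaca, and Fasn builds palmitate from both with NADPH that Me1 helps to supply. Elovl6 lengthens palmitate to stearate, and Scd1 puts a double bond into stearate. Srebf1 encodes the transcription factor that switches these genes on under insulin, and Thrsp encodes a small nuclear protein that responds to thyroid hormone and carbohydrate and promotes lipogenesis.

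The promoters of Thrsp, Elovl6 and Fasn are shown because these genes had the largest differences from vehicle in liver, Thrsp and Elovl6 at 90 mg/kg and Fasn at 60 mg/kg. Each is the 250 bases before a RefSeq transcript start in GRCm38.p6, written 5′ to 3′ on the gene's strand, at chr7:97417551-97417800 on the minus strand for Thrsp, chr3:129532136-129532385 on the plus strand for Elovl6 and chr11:120824548-120824797 on the minus strand for Fasn. The annotated Fasn locus reaches beyond this start, so its window lies inside the locus, while those of Thrsp and Elovl6 adjoin theirs. Capitals mark CCAAT, or ATTGG where it lies on the other strand.
Thrsp: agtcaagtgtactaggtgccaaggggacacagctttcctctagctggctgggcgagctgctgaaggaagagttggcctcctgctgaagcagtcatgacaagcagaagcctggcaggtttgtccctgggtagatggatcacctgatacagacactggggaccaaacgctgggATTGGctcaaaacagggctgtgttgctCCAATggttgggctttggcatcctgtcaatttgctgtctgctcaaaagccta
Elovl6: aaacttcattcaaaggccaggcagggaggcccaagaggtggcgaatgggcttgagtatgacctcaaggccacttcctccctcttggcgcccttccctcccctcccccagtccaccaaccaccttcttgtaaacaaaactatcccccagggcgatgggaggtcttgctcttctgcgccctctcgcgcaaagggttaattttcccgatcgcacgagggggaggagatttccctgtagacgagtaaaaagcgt
Fasn: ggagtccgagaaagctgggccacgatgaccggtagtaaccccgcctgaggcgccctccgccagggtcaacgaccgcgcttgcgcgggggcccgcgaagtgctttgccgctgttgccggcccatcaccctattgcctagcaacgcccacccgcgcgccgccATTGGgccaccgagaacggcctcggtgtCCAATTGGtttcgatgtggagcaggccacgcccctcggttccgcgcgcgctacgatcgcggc
The pentamer CCAAT, which the factor NF-Y binds, began 52 bases before the start in Thrsp, and its reverse form began 79 bases before it. In Fasn it began 62 bases before the start, and the reverse form began 90 and 59 bases before it, the last overlapping the forward copy. The Elovl6 window held neither form. Of the 8 measured genes, 7 were in the promoter table (Scd1 was not), and 4 of them had CCAAT on either strand (Thrsp, Me1, Fasn and Srebf1), against 33.8% of 32851 promoters. Me1 and Srebf1 had more than 1 start in the table and were counted if any of them had it. The sterol regulatory element TCACNCCAC was in 0 of the 7 and in 1.05% of all promoters, and the E-box CACGTG was in 0 of the 7 and in 6.02% of all. A match here describes letters, not a bound site.

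The deposited values were background-subtracted intensities of arrays brought to 1 shared distribution, so a signal can lie below 0. Signals are comparable between arrays of 1 organ but not between probes. The shared distribution was forced on organs with unlike RNA, so comparisons between organs are less secure. A probe was taken as detected above 7.82 to 7.91 signal units, depending on the array. The markers of each organ were detected in it: 8 of 8 hepatocyte markers in at least 4 liver arrays, 6 of 6 alveolar type II markers in lung, 7 of 7 spermatid markers in testis and 3 of 3 B cell markers in spleen. That count does not separate the organs, since 7 of 7 spermatid markers also met it in spleen, and 6 of 8 hepatocyte and 3 of 3 B cell markers in lung. Summed signals did: the alveolar type II sum was 42642 to 52701 in lung and at most 5688 elsewhere. The B cell sum was 11004 to 13620 in spleen and at most 719 elsewhere. Some arrays also held markers of another organ. The summed signal of the 7 spermatid markers was 14194 and 25978 in the vehicle spleen arrays and 500 to 7462 in the treated ones, against 91558 to 97574 in testis. It was 5381 and 4243 in the vehicle lung arrays, 32.7 to 1310 in the treated ones, and 295 to 1766 in liver. The summed signal of the 8 hepatocyte markers was 378 to 10980 in lung, with Fgb and Tat detected in no lung array, against 45044 to 55112 in liver. In whole organs, fewer cells of a type and less RNA per cell cannot be told apart.

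In vehicle-treated mice, liver had the highest mean signal for 7 of the 8 genes, the exception being Acly. Thrsp, Elovl6 and Srebf1 stood far above the other organs there, whereas Acaca and Scd1 differed little between liver and lung. The 6 pairs of organs were compared with limma over 13862 genes, with Benjamini-Hochberg adjustment, and 33 of the 48 comparisons of a gene between a pair of organs passed an adjusted p of 0.05. That share has to be read against how unlike the organs are: 48.8% of all genes differed between liver and lung, 53.7% between liver and spleen, 61.4% between liver and testis, 41.8% between lung and spleen, 61.1% between lung and testis and 56.8% between spleen and testis. Liver was above lung for 4 of the 8 (Thrsp, Elovl6, Srebf1 and Me1), above spleen for 7, all but Acly, and above testis for 7, all but Me1. Me1 was also the 1 gene that was higher in testis than in lung and in spleen.

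Thrsp had vehicle signals of 6823 and 6563 in liver, 324.5 and 90.4 in lung, 78.4 and 264 in spleen, and 9.3 and 19.7 in testis. Liver exceeded lung by 5.14 ± 0.74 on the log2 scale (SE, n = 2 and 2, limma adjusted p = 3.7e-06), and lung did not differ from spleen beyond its error (0.23 ± 0.74, limma adjusted p = 0.858). Spleen exceeded testis by 2.44 ± 0.74 (limma adjusted p = 0.00692). The arrays of lung and of spleen lay far apart from each other and overlapped between these organs.

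Elovl6 had vehicle signals of 801 and 1397 in liver, 83.5 and 61.3 in lung, 55.2 and 81.2 in spleen, and 31.1 and 33.0 in testis. Liver stood apart from lung by 3.61 ± 0.41 on the log2 scale (limma adjusted p = 1.23e-07), and lung and spleen overlapped (0.08 ± 0.41, adjusted p = 0.919). Srebf1 read 400.5 and 342 in liver, 60.8 and 79.9 in lung, 19.1 and 27.7 in spleen, and 1.6 and 0.1 in testis, where it was not above background. Each of its steps from liver down to testis passed the limma test, with adjusted p from 1.45e-06 for liver over lung to 0.00306 for lung over spleen. A second Srebf1 probe was detected in 1 of 32 arrays and read 2.2 and -0.2 in vehicle liver, so this order rests on 1 probe. Vehicle Srebf1 signal was 46.9 times the lowest signal counted as detected in liver, 8.82 times in lung and 2.91 times in spleen, ratios that carry no error. Each of these organs exceeded testis, which lay under that signal (limma adjusted p = 4.44e-12, 2.38e-07 and 0.000965).

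Me1, the cytosolic malic enzyme, was high in liver and in testis. Its vehicle signals were 556 and 881 in liver, 503 and 470 in testis, 218.5 and 178 in lung, and 32.3 and 71.2 in spleen. Liver and testis were not separated (0.51 ± 0.29, limma adjusted p = 0.139), while testis exceeded lung by 1.24 ± 0.29 (adjusted p = 0.000786) and lung exceeded spleen by 1.72 ± 0.29 (adjusted p = 4.82e-05).

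Scd1 had vehicle signals of 12118 and 15828 in liver, 10871 and 9590 in lung, 2650 and 5470 in spleen, and 125.0 and 122 in testis. Lung, whose alveolar type II cells make surfactant lipid, did not differ from liver beyond error (0.44 ± 0.42 in favour of liver, limma adjusted p = 0.42), but exceeded spleen by 1.42 ± 0.42 (adjusted p = 0.0085). Spleen exceeded testis by 4.78 ± 0.42 (limma adjusted p = 1.15e-09). Acaca followed the same order at the top, with 1292.5 and 1630 in liver and 1380 and 1124 in lung (0.22 ± 0.27, adjusted p = 0.543), and it was lower in testis, at 785 and 591.5, and in spleen, at 434 and 589.

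Acly had nearly the same signal in 3 organs: 3461 and 4071 in spleen, 3727 and 3690.5 in lung, and 2950.5 and 3755.5 in liver. Testis was lower, at 1167 and 969, and liver exceeded it by 1.63 ± 0.27 on the log2 scale (limma adjusted p = 1.22e-05). The Fasn probe was dim everywhere, detected in 18 of 32 arrays, with 35.1 and 47.0 in vehicle liver, 17.0 and 13.2 in lung, 14.1 and 6.1 in testis, and 8.9 and -11.8 in spleen. No neighbouring organs differed for Fasn in that order, the smallest adjusted p being 0.0861 for liver over lung.

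**Figure D1:**
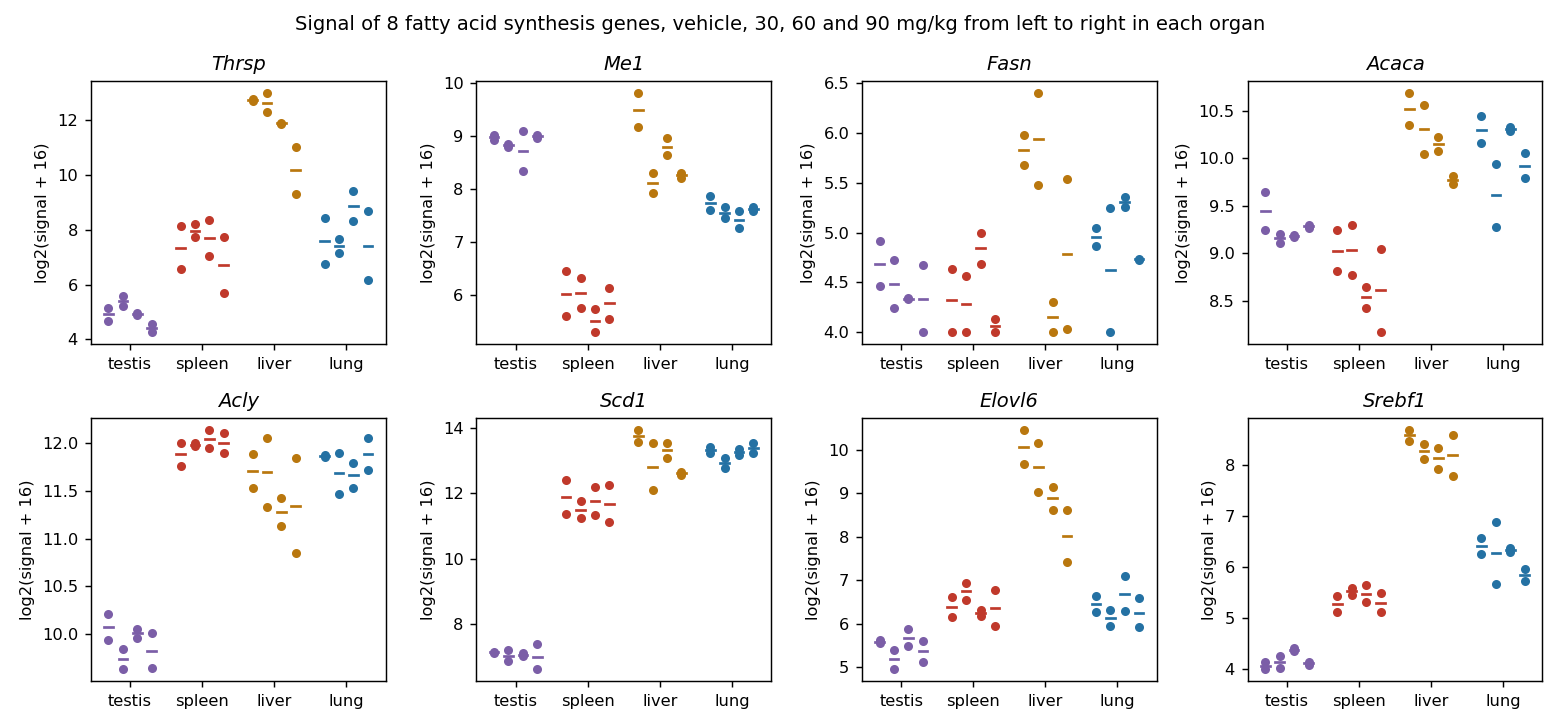
Signal of each measured gene (signal units on a log2 scale after adding 16, with values below 0 set to 0) in every array, by organ and, from left to right, vehicle, 30, 60 and 90 mg/kg; each point is 1 array, 2 per group, and each dash is the mean of the group. In liver the points of Thrsp and Elovl6 come down from vehicle to 90 mg/kg. At 90 mg/kg the mean is also below vehicle for 6 of 7 tested genes in testis and 6 of 8 in spleen and lung. The median differences there are -0.23, -0.20 and -0.18, beside -1.09 in liver.

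In liver, all 8 measured genes had a lower mean log2 value at 60 and at 90 mg/kg than in vehicle, and none of them passed an adjusted p of 0.05. The order of the differences at 90 mg/kg was led by Thrsp and Elovl6, then Me1, Scd1 and Fasn, with Acaca, Srebf1 and Acly behind. The median difference of the 8 was -0.27 at 30 mg/kg, -0.57 at 60 mg/kg and -1.09 at 90 mg/kg, beside 0, 0 and -0.01 over all 11586 genes tested in liver. With limma, 0 of the 8 were called at each dose, over the 3 doses together and in the dose trend. The background was equally empty: 0% of genes were called at 30, at 60 and at 90 mg/kg and over the 3 doses, and 0.00863% in the trend. Without adjustment, at p under 0.05, 1, 3 and 5 of the 8 were lower at 30, 60 and 90 mg/kg, against 2.35%, 3.56% and 5.22% of all genes, and 0 of the 8 were higher, against 2.55%, 3.45% and 5.92%. Over the 3 doses and in the trend 4 of the 8 were lower at that level, against 4.19% and 5.82%.

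Seen array by array, 3 of the 8 had both arrays at 30 mg/kg below both vehicle arrays (Me1, Scd1 and Srebf1), against 18.5% of all genes. At 60 mg/kg this held for 8 of 8, also against 18.5%. At 90 mg/kg it held for 6 of 8, all but Acly and Srebf1, against 20.8%. Me1 and Scd1 had all 6 treated arrays below both vehicle arrays, against 5.29% of all genes. The second array was below the first for 8 of 8 at 30 mg/kg and for 6 of 8 at both 60 and 90 mg/kg, while in vehicle the first was lower for 6 of 8. The genes share these 8 arrays, so their directions are not independent: Pearson's r of log2 values over the 8 liver arrays ran from 0.13 to 0.92 over the 28 pairs of genes, with a median of 0.65.

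Thrsp had liver signals of 6823 and 6563 in vehicle, 8017 and 4917 at 30 mg/kg, 3622.5 and 3791 at 60 mg/kg, and 2055 and 616 at 90 mg/kg. The arrays at 60 mg/kg agreed closely with each other and lay below vehicle, and those at 90 mg/kg lay lower again but apart from each other. The log2 difference from vehicle was -0.09 ± 0.50 at 30, -0.85 ± 0.50 at 60 and -2.55 ± 0.50 at 90 mg/kg (SE, n = 2 per group), the last a 5.86-fold lower level. Its limma adjusted p was 0.178. By size it was number 7 among the genes lower at 90 mg/kg, and the mean signal there was 20.0% of the vehicle mean. The slope was -0.84 ± 0.18 per 30 mg/kg (limma adjusted p = 0.117).

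Elovl6 had liver signals of 801 and 1397 in vehicle, 1130 and 507 at 30 mg/kg, 550 and 378 at 60 mg/kg, and 374 and 155 at 90 mg/kg. The groups at 60 and 90 mg/kg did not overlap with vehicle, and with each other they only just failed to, while the pair at 30 mg/kg straddled its lower edge. The log2 difference was -0.47 ± 0.51 at 30, -1.19 ± 0.51 at 60 and -2.06 ± 0.51 at 90 mg/kg, the last 4.17-fold lower (limma adjusted p = 0.225). It was number 16 by size among the genes lower at 90 mg/kg. Its slope, -0.69 ± 0.15 per 30 mg/kg, had the smallest trend p of the 8 (limma adjusted p = 0.114).

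Scd1, the desaturase that acts after Elovl6, had liver signals of 12118 and 15828 in vehicle, 11973.5 and 4341 at 30 mg/kg, 11973.5 and 8688 at 60 mg/kg, and 6456 and 6066 at 90 mg/kg. All treated arrays lay below vehicle, 2 of them only just. The log2 difference was -0.94 ± 0.44 at 30, -0.44 ± 0.44 at 60 and -1.14 ± 0.44 at 90 mg/kg, which is 2.21-fold lower at the highest dose (limma adjusted p = 0.39). The lowest single array was the second at 30 mg/kg, so the doses had no even order for Scd1.

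Me1 had liver signals of 556 and 881 in vehicle, 299.5 and 226 at 30 mg/kg, 480 and 383 at 60 mg/kg, and 279.5 and 300.0 at 90 mg/kg. All 6 treated arrays lay below vehicle, with the lowest pair at 30 mg/kg. The log2 difference was -1.37 ± 0.28 at 30, -0.69 ± 0.28 at 60 and -1.23 ± 0.28 at 90 mg/kg, 2.34-fold lower at the highest dose (limma adjusted p = 0.206). Over the 3 doses together it was -1.10 ± 0.23 (limma adjusted p = 0.3). A second, dimmer Me1 probe read 12.7 and 213 in vehicle liver, -5.7 and -4.7 at 30 mg/kg, 149 and 175 at 60 mg/kg, and 123 and 90.7 at 90 mg/kg. Its lowest pair was also at 30 mg/kg, but at 60 and 90 mg/kg it lay between the vehicle arrays, and the mean over both probes gave -0.32 at 90 mg/kg.

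Acly, Acaca and Fasn are the core of the pathway. Acaca had liver signals of 1292.5 and 1630 in vehicle, 1489 and 1042.5 at 30 mg/kg, 1065 and 1180.5 at 60 mg/kg, and 833 and 885 at 90 mg/kg. Its arrays at 60 and 90 mg/kg lay below both vehicle arrays, those at 90 mg/kg close together at 58.8% of the vehicle mean. The log2 difference at 90 mg/kg was -0.75 ± 0.24 (1.68-fold lower, limma adjusted p = 0.32).

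Acly had liver signals of 2950.5 and 3755.5 in vehicle, 4227 and 2566 at 30 mg/kg, 2730 and 2225 at 60 mg/kg, and 3645.5 and 1827 at 90 mg/kg. The arrays at 30 and at 90 mg/kg spanned the vehicle arrays on both sides or reached into them. The log2 difference was -0.43 ± 0.38 at 60 and -0.36 ± 0.38 at 90 mg/kg (limma adjusted p = 0.935 and 0.761).

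Fasn had liver signals of 35.1 and 47.0 in vehicle, 68.6 and 28.7 at 30 mg/kg, 3.7 and -0.4 at 60 mg/kg, and 30.6 and 0.4 at 90 mg/kg. Neither array at 60 mg/kg was above background, and 1 of the 2 at 90 mg/kg was. The vehicle signal was 5.14 times the lowest signal counted as detected, a ratio that carries no error. At 60 mg/kg the fitted difference was -1.68 ± 0.49, or 3.2-fold (limma adjusted p = 0.541). At 90 mg/kg the difference was -1.04 ± 0.49 (limma adjusted p = 0.486). At signals this low, the precision of the array limits what Fasn can show.

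Srebf1, which encodes the regulator, had liver signals of 400.5 and 342 in vehicle, 328 and 264 at 30 mg/kg, 310 and 227.5 at 60 mg/kg, and 370 and 207 at 90 mg/kg. At 30 and 60 mg/kg both arrays lay below vehicle, and at 90 mg/kg the first array lay between the vehicle arrays. The log2 difference stayed between -0.46 ± 0.31 at 60 mg/kg and -0.32 ± 0.31 at 30 mg/kg, with -0.40 ± 0.31 at 90 mg/kg (limma adjusted p = 0.679). Its mean at 90 mg/kg was 77.7% of vehicle, beside 24.0% for Elovl6.

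**Figure D2:**
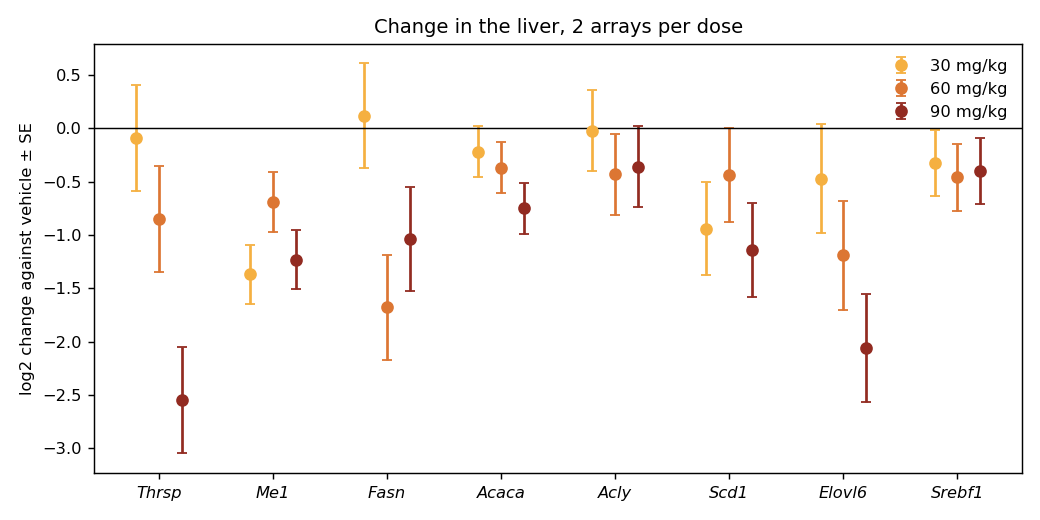
Log2 difference from vehicle in liver for each of the 8 genes at 30, 60 and 90 mg/kg, with bars for 1 SE from limma (2 arrays per group). Thrsp at -2.55 and Elovl6 at -2.06 lie farthest below 0 at 90 mg/kg, and Acly and Srebf1 stay nearest to it.

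**Figure D3:**
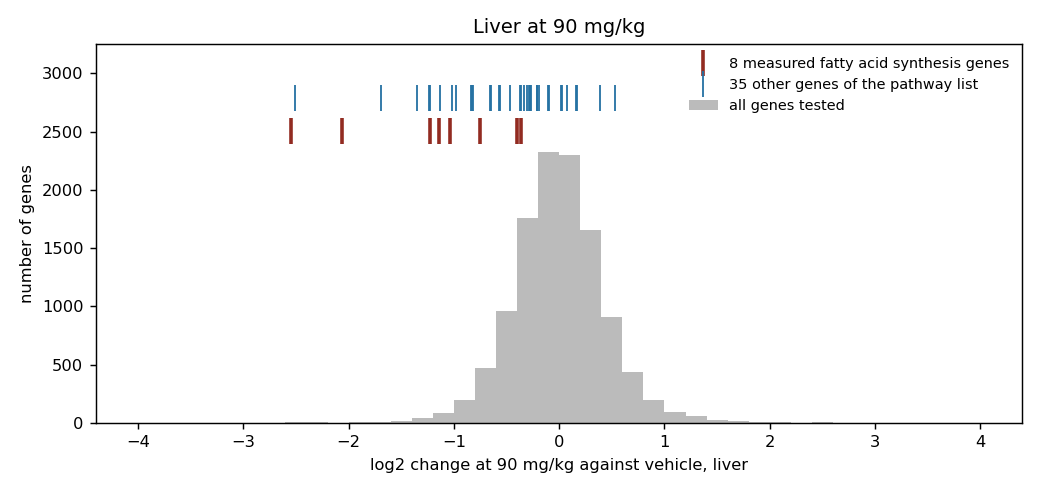
Distribution of the log2 difference from vehicle at 90 mg/kg in liver over the 11586 genes tested, with values past 4 in either direction gathered in the outer bins; red marks are the 8 genes and blue marks the 35 tested genes of the wider pathway list described next, with height of no meaning. All 8 red marks lie below 0, from -0.36 for Acly to -2.55 for Thrsp.

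Markers of adipocytes, which express these genes too, and of hepatocytes were also read in liver. Adipoq was at 1.5 to 15.7 in the 8 liver arrays, and Plin1 and Fabp4 were detected in none. The summed signal of the 10 adipocyte markers was 4352 to 11592 in liver, nearly all of it Car3, which hepatocytes also express. The hepatocyte sum was 52525 and 53080 in vehicle and 45044 and 54084 at 90 mg/kg. The part of either marker set in the liver values was not tested.

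Beside these, a list of 40 regulators and enzymes of lipogenesis and the steps around it was counted. The list was chosen with earlier results of these data known, so its counts are not an independent check. Of these, 36 had a probe and 35 were tested in liver. At 90 mg/kg 0 of the 35 were called with limma (0% of all genes). At an unadjusted p under 0.05, 11 were lower (5.22% of all genes were) and 0 were higher. Both arrays lay below both vehicle arrays for 23 of the 35 (20.8% of all genes) and above them for 0 (20.7%). The median difference was -0.36, beside -0.16 at both 30 and 60 mg/kg.

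The smallest p-values of that list at 90 mg/kg belonged to Aacs, Lpin1 and Acot1. Aacs, which activates acetoacetate for lipid synthesis, had liver signals of 2228 and 1980 in vehicle, 1912 and 858 at 30 mg/kg, 945.5 and 1243 at 60 mg/kg, and 377 and 335 at 90 mg/kg, a difference of -2.51 ± 0.36 at the highest dose (limma adjusted p = 0.119). Lpin1, a phosphatidate phosphatase of triglyceride synthesis, was at 1118 and 1527 in vehicle and at 588 and 506 at 90 mg/kg (-1.24 ± 0.24, limma adjusted p = 0.17). Acot1, an acyl-CoA thioesterase, was at 1235 and 1299 in vehicle and at 544 and 268 at 90 mg/kg (-1.69 ± 0.37, limma adjusted p = 0.196). In all 3 both arrays at 90 mg/kg were below every vehicle array.

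A few others were chosen after their values were seen. Acss2, which makes acetyl-CoA from acetate, read 2853 and 3949 in vehicle liver, 1455 and 1323.5 at 60 mg/kg and 1442 and 1192 at 90 mg/kg (-1.35 ± 0.33 at 90 mg/kg, limma adjusted p = 0.223). Pklr, the liver pyruvate kinase, read 226 and 257 in vehicle and 95.1 and 92.8 at 90 mg/kg (-1.23 ± 0.33, limma adjusted p = 0.254). Mlxipl, which encodes the carbohydrate-responsive factor ChREBP, read 1720 and 1539 in vehicle and 1101.5 and 1503 at 90 mg/kg (-0.33 on the log2 scale). Mid1ip1, the paralog of Thrsp, had a difference of 0.02 ± 0.32 at 90 mg/kg.

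Genes of fasting, gluconeogenesis and fatty acid oxidation were counted as the other side of hepatic fuel use. This list too was chosen with earlier results of these data known. Of 14 listed, 11 had a probe and were tested in liver, and 0 were called at 90 mg/kg with limma. At an unadjusted p under 0.05, 4 of the 11 were lower (5.22% of all genes were) and 0 higher (5.92%), with a median of -0.12 beside -0.01 over all genes. G6pc, the last enzyme of glucose output, read 4515 and 6166 in vehicle and 1253 and 1498 at 90 mg/kg (-1.93 ± 0.32, limma adjusted p = 0.131). Fbp1, another gluconeogenic enzyme, had a difference of -0.83 ± 0.27, and Txnip, a glucose-responsive gene, of -0.64 ± 0.21 (both with a limma adjusted p of 0.314). Pdk4, which fasting raises and which was named after its value was seen, had a difference of 0.20 ± 0.30.

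Whether the liver difference at 90 mg/kg was unlike that of the other organs was tested directly in a limma fit of all 32 arrays, as the liver change minus the mean change of testis, spleen and lung. Elovl6 was the 1 gene of the 8 that passed, with a difference of -1.91 ± 0.47 (limma adjusted p = 0.043), where 1.62% of 13862 genes were called and 0.794% were called lower. Its own values behind this were -2.06 in liver, -0.23 in testis, -0.02 in spleen and -0.20 in lung. Against single organs it passed against spleen (-2.04 ± 0.58, limma adjusted p = 0.0429, with 5.05% of genes called). It did not pass against testis (-1.83 ± 0.58, adjusted p = 0.206, 0.317% called) or lung (-1.86 ± 0.58, adjusted p = 0.153, 0.505% called).

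The call of Elovl6 was fragile. It was lost in 18 of 32 fits that left out 1 array, with adjusted p from 0.0169 to 0.231. It held without the first or second array of liver at 30 or 60 mg/kg, lung at 60 mg/kg or spleen at 30 mg/kg, without the first array of vehicle liver, vehicle lung or liver at 90 mg/kg, and without the second array of vehicle spleen, spleen at 90 mg/kg or lung at 90 mg/kg. Without any other array, including the second of vehicle liver and of liver at 90 mg/kg, it was lost. Without the lung arrays the difference was -1.94 ± 0.50 with an adjusted p of 0.0668.

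For the other genes this difference did not pass. It was -2.12 ± 0.85 for Thrsp (limma adjusted p = 0.222), -1.14 ± 0.34 for Me1 (adjusted p = 0.0955) and -1.05 ± 0.48 for Scd1 (adjusted p = 0.291). The error of Thrsp was the largest of these.

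In spleen no gene of the 8 was called with limma at any dose, whereas 3.13%, 1.90% and 4.27% of all genes were at 30, 60 and 90 mg/kg, and 8.58% over the 3 doses and 5.11% in the trend. At an unadjusted p under 0.05 the count was also 0 at each dose, against 12.7%, 21.3% and 24.8% of all genes. Thrsp read 78.4 and 264 in vehicle, 277 and 195 at 30 mg/kg, 116 and 307 at 60 mg/kg, and 195 and 36.2 at 90 mg/kg. The arrays of a group lay far apart and the groups overlapped, and the difference at 90 mg/kg was -0.63 ± 0.75 (limma adjusted p = 0.642). The other differences at 90 mg/kg ran from -0.42, for Acaca, to 0.12, for Acly, whose arrays stayed between 3461 and 4494. The mean log2 value was below vehicle for 2, 4 and 6 of the 8 at 30, 60 and 90 mg/kg. The median differences were 0.06, 0.02 and -0.20, beside 0.07, 0.09 and 0.08 over all genes.

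In spleen Scd1 read 2650 and 5470 in vehicle, 3461 and 2387 at 30 mg/kg, 2566 and 4698.5 at 60 mg/kg, and 4846 and 2198 at 90 mg/kg, overlapping throughout. Acaca read 434 and 589 in vehicle, and at 60 mg/kg, at 329 and 385, both arrays were below vehicle, the 1 of 8 genes of which this was true (21.5% of all genes). Fasn was above both vehicle arrays at 60 mg/kg (33.1% of all genes), at 9.8 and 16.0 against 8.9 and -11.8, and Srebf1 was at 30 mg/kg (26.9%), at 27.9 and 32.6 against 19.1 and 27.7. At 90 mg/kg 0 of 8 were outside vehicle, where 21.6% of all genes lay below and 32.3% above.

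The spleen genes moved together between the 2 arrays of a group. In the first array 7 of 8 were lower in vehicle and 8 of 8 at 60 mg/kg, and in the second array 7 of 8 were lower at 30 mg/kg and 8 of 8 at 90 mg/kg. The sum of the 10 adipocyte markers moved with them: 893 and 2984 in vehicle, 2284 and 1416 at 30 mg/kg, 2043 and 4096 at 60 mg/kg, and 2172 and 860 at 90 mg/kg. In 4 of 4 spleen groups the array with the lower sum was the one with most of the 8 genes lower, as it was in 3 of 4 groups in lung, 2 of 4 in liver and 1 of 4 in testis. Retn and Fabp4 were detected in no spleen array, Adipoq was at 312.5 to 1682, and the part of these markers in the spleen values was not tested.

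In lung no gene of the 8 was called with limma, where 0% of all genes were called at 30, 60 and 90 mg/kg, 0.255% over the 3 doses and 0.0352% in the trend. At an unadjusted p under 0.05, 1 of 8 was lower at 30 mg/kg (3.84% of all genes) and 0 differed at 60 and 90 mg/kg, while 5.90%, 8.92% and 11.5% of all genes differed in either direction at the 3 doses. That gene was Acaca, at 1380 and 1124 in vehicle, 604 and 969 at 30 mg/kg, 1268 and 1230 at 60 mg/kg, and 1046 and 871 at 90 mg/kg. Both arrays at 30 and at 90 mg/kg lay below vehicle, and the difference at 30 mg/kg was -0.69 ± 0.26 (limma adjusted p = 0.75). Both arrays lay below vehicle for 2 of 8 at 30 mg/kg (Acaca and Scd1, 18.5% of all genes), for 2 of 8 at 60 mg/kg (Me1 and Acly, 24.0%) and for 3 of 8 at 90 mg/kg (Fasn, Acaca and Srebf1, 24.0%). Fasn alone lay above vehicle, at 60 mg/kg (16.0% of all genes). The mean log2 value was below vehicle for 8, 4 and 6 of the 8 at 30, 60 and 90 mg/kg. The median differences were -0.26, -0.02 and -0.18, beside 0.01, -0.03 and -0.01 over all genes.

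Scd1 stayed high in lung, at 10871 and 9590 in vehicle, 7037 and 8688 at 30 mg/kg, 10545 and 9241 at 60 mg/kg, and 11973.5 and 9590 at 90 mg/kg. The difference at 90 mg/kg was 0.07 ± 0.21, beside -1.14 ± 0.44 in liver. Srebf1 was at 60.8 and 79.9 in vehicle lung and at 46.5 and 37.3 at 90 mg/kg (-0.57 ± 0.37, limma adjusted p = 0.629).

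Thrsp had the most uneven lung values: 324.5 and 90.4 in vehicle, 187 and 125 at 30 mg/kg, 305 and 664 at 60 mg/kg, and 389 and 55.8 at 90 mg/kg. The adipocyte sum ran alongside at 1838 and 429 in vehicle, 376 and 466 at 30 mg/kg, 2097 and 11707 at 60 mg/kg, and 1995 and 407 at 90 mg/kg. At 30 mg/kg the array with the lower sum had the higher Thrsp. The array with the highest Thrsp was also the one with the highest sum and the highest Adipoq, 3591 signal units, and Retn was the adipocyte marker detected in no lung array. The hepatocyte sum in the lung was 1152 and 8080 in vehicle and 10917 and 378 at 90 mg/kg, and the part of either marker set in the lung values was not tested. The Thrsp difference at 60 mg/kg was 1.30 ± 0.84 (limma adjusted p = 0.723).

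**Figure D4:**
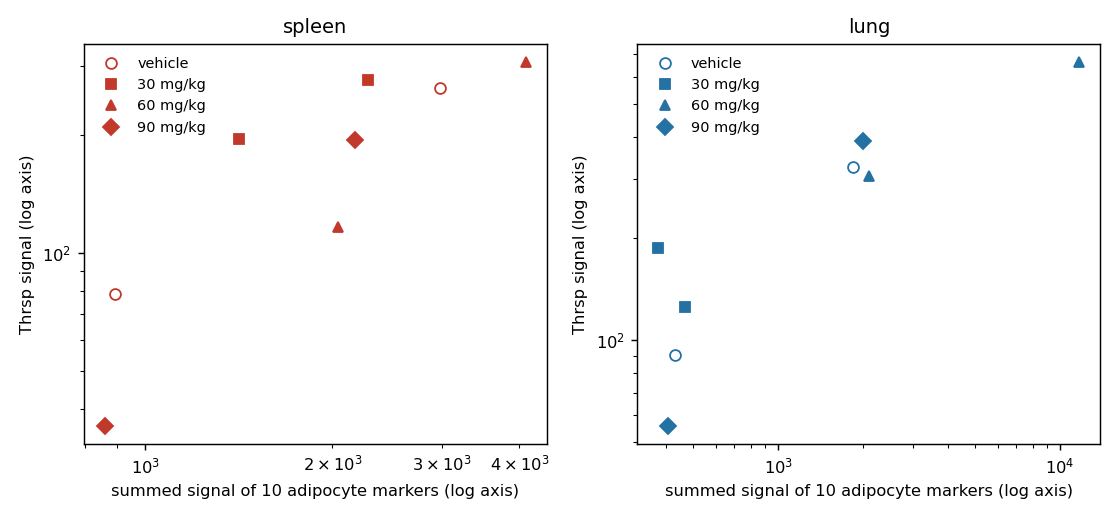
Thrsp signal against the summed signal of the 10 adipocyte markers in each of the 8 spleen arrays and the 8 lung arrays, both in signal units on log axes, with a symbol for each dose. In each organ the array with the highest sum also has the highest Thrsp, 307 in spleen and 664 in lung. The lowest sum in spleen goes with the lowest Thrsp, 36.2. In lung the lowest sum, 376, goes with a Thrsp of 187, and the lowest Thrsp, 55.8, with a sum of 407.

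In testis 7 of the 8 were tested, since Srebf1 was detected in no testis array, with values from 0.1 to 5.3. With limma 0 of 7 were called at any dose, where 0%, 0% and 0.00924% of all genes were at 30, 60 and 90 mg/kg and 0% over the 3 doses and in the trend. At an unadjusted p under 0.05, 1 was higher at 30 mg/kg (1.94% of all genes) and 1 lower at 90 mg/kg (3.75%), and both were Thrsp. In either direction 4.50%, 9.03% and 7.56% of all genes passed that level at 30, 60 and 90 mg/kg. Thrsp read 9.3 and 19.7 in vehicle, 21.2 and 32.3 at 30 mg/kg, 15.0 and 13.4 at 60 mg/kg, and 3.2 and 7.7 at 90 mg/kg, where neither array was above background. Its difference was 0.50 ± 0.21 at 30 mg/kg (limma adjusted p = 0.925) and -0.49 ± 0.21 at 90 mg/kg (adjusted p = 0.649), the latter a fitted 1.41-fold. The first vehicle array, at 9.3, was itself barely above background, so the size of this fold is uncertain.

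Both testis arrays lay below vehicle for 4 of 7 at 30 mg/kg (Me1, Acaca, Acly and Elovl6, 16.3% of all genes), for 3 of 7 at 60 mg/kg (Fasn, Acaca and Scd1, 19.4%) and for 1 of 7 at 90 mg/kg (Thrsp, 19.3%). At 30 mg/kg 1 of 7, Thrsp, lay above (13.5%). The mean log2 value was below vehicle for 6, 5 and 6 of the 7 at 30, 60 and 90 mg/kg. The median differences were -0.21, -0.08 and -0.23, beside -0.01, 0 and -0.01 over all genes. Me1, the gene of the 8 with testis signal nearest to that of liver, read 503 and 470 in vehicle testis and 505 and 483 at 90 mg/kg, a difference of 0.02 ± 0.22, beside -1.23 ± 0.28 in liver. Acly read 1167 and 969 in vehicle and 786 and 1018 at 90 mg/kg (-0.25 ± 0.18), and the groups overlapped.

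The wider pathway list gave 0 calls with limma in testis (31 tested), spleen (32) and lung (33) at 90 mg/kg. At an unadjusted p under 0.05 the counts were 1 higher and 1 lower in testis, where 7.56% of all genes passed in either direction, 2 and 2 in spleen (24.8% of all genes), and 2 and 0 in lung (11.5%). The contrast between organs was not tested for the list. The smallest p in testis was that of Mlxipl (-0.67 ± 0.23), followed by the desaturase Fads2 (0.43 ± 0.18) and the triglyceride-forming enzyme Dgat1 (0.33 ± 0.16). In spleen they were Pklr (-0.68 ± 0.19, limma adjusted p = 0.0781), the citrate carrier Slc25a1 (0.53 ± 0.19) and Lpin1 (0.41 ± 0.17). In lung they were Insig1, which holds back the activation of sterol regulatory element binding proteins (0.64 ± 0.22, limma adjusted p = 0.323), Lpin1 (0.52 ± 0.22) and the elongase Elovl1 (-0.42 ± 0.19). The spleen signals of Pklr were at the edge of background, 9.3 and 10.6 in vehicle and -5.2 and 0.4 at 90 mg/kg. It was detected in no treated spleen array and was tested only because both vehicle arrays passed the detection filter, so its difference cannot count as a fall.

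On the fasting list, limma called 0 genes at 90 mg/kg in testis (7 tested), spleen (7 tested) or lung (9 tested), beside 0.00924%, 4.27% and 0% of all genes. Without adjustment, at p under 0.05, the counts were 0 in testis (7.56% of all genes), 1 lower in spleen (24.8%) and 3 higher in lung (11.5%). The smallest p-values were those of Txnip (0.36 ± 0.19), the lipoprotein lipase inhibitor Angptl4 (0.24 ± 0.19) and Acadm, an enzyme of fatty acid oxidation (-0.18 ± 0.18) in testis. In lung they were Pdk4 (0.87 ± 0.29), Angptl4 (0.91 ± 0.31) and the coactivator Ppargc1a (0.52 ± 0.21). In spleen Fbp1 was lower over the 3 doses together, by 2.34 ± 0.49 on the log2 scale (limma adjusted p = 0.0285, with 8.58% of all genes called). It read 115 and 260 in vehicle spleen, 4.1 and 22.3 at 30 mg/kg, 47.7 and 25.2 at 60 mg/kg, and 51.2 and 4.8 at 90 mg/kg, so all 6 treated arrays were below both vehicle arrays. At 90 mg/kg alone it stood at -2.35 ± 0.60 (limma adjusted p = 0.0611), followed by Angptl4 (0.53 ± 0.28) and Pdk4 (0.35 ± 0.26). The spermatid markers given above were also highest in the vehicle spleen arrays, and Fbp1 itself read 3652 and 3441 in vehicle testis. The part of such testis signal in the spleen Fbp1 values was not tested.

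The liver genes whose values ran most like those of Thrsp over the 8 liver arrays were Icam2 (r = 0.968), Mgst1 (0.967), Scnn1a (0.967), 2900026A02Rik (0.966) and H2-Ab1 (0.964), out of 7369 genes detected in all 8. Those most like Fasn were Tek (r = 0.987), Pank1 (0.985), Dpp4 (0.980), Spag9 (0.953) and Aco1 (0.936), out of 7370. These are the highest of many values of Pearson's r over 8 arrays that share their normalization, and they describe these arrays only.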

How the data were processed

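RNA extracted with TRIzol from whole organs was labelled as cRNA and hybridised to Illumina BeadChips, 32 arrays, per the labels' protocols. The submitters' processing notes name GenomeStudio for the deposited intensity values, in a version not given in the sources used here. In the deposited intensity values of each array, 22.0% to 22.5% lay below 0, and sorted values differed by at most 1.0 between arrays, so the values were background-subtracted and quantile normalized over all organs by the authors. This forces organs with unlike RNA onto 1 distribution. A non-normalized table repeats sample names in its header, so its 64 per-sample columns (32 of signal, 32 of detection p) were not used.

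Of 25697 probes, 23978 had 1 gene symbol, 0 several and 1719 none, and 23962 were matched by identifier. Each of 16593 genes was read from its brightest probe, and 4777 genes had a choice of probes. Intensities were floored at 0, raised by 16 and log2-transformed; fold changes are on this scale and understate dim genes. The background noise SD was read from the negative values, and a signal above 1.645 times it counted as detected, 55.4% to 56.0% of probes per array. Genes detected in at least 2 arrays of the organ were tested with limma 3.58.1 (R 4.3.3; Python 3.11.15, pandas 2.3.3), each organ in its own fit, with Benjamini-Hochberg adjustment over all genes tested and a threshold of 0.05. The differences between organs used 1 fit of all arrays. The number of arrays limits the precision. The fit was tested on simulated data. Alternatives were other offsets, filters, normalization, probe rules, replicate block, fits over all arrays, arrays left out and, chosen after seeing the data, the lung arrays left out. All members were named, called or not, and of each further list those called or else the 3 with the smallest p at 90 mg/kg. In liver, Acss2, Pklr, Mlxipl, Mid1ip1 and Pdk4 were named besides, after their values were seen. The members and lists were chosen with earlier results of these data known.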

Additional observations from a re-analysis of the deposited data

Results flagged for a closer look

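Elovl6 differed between organs by a test of the difference: its liver change at 90 mg/kg minus the mean change of the other organs was -1.91 on the log2 scale, and minus that of spleen it was -2.04. The first of these calls was fragile, as described above, and did not pass without the lung arrays (limma adjusted p = 0.0668). The remaining differences were not tested; both treated arrays of each organ lay outside vehicle, in opposite directions. At 60 mg/kg the change of Fasn was -0.88 in testis relative to spleen, -0.70 in testis relative to lung, 2.20 in spleen relative to liver and -2.03 in liver relative to lung, at signals near background. At 30 mg/kg the change of Srebf1 was 0.55 in spleen relative to liver.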

How the results depend on the processing

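When 1 array was left out, the log2 difference in liver at 90 mg/kg ran from -3.41 to -1.70 for Thrsp, -2.65 to -1.46 for Elovl6, -1.55 to -0.90 for Me1, -1.34 to -0.95 for Scd1, -0.91 to -0.58 for Acaca, -1.79 to -0.28 for Fasn, -0.79 to 0 for Srebf1 and -0.86 to 0.13 for Acly. The high ends for Fasn and Srebf1 came without the second array at 90 mg/kg and the low ends without the first. The other alternatives kept the sign of all 8, but Me1 was -0.32 with the mean over probes and Fasn -0.51 with an offset of 50. With an offset of 50 in place of 16, the genes called in liver numbered 1 at 90 mg/kg (Thrsp, -2.51, adjusted p = 0.0326) and 2 in the trend, where 63 and 139 genes in all were called against 0 and 1. In a fit over all 32 arrays they numbered 1 at 30 mg/kg, 2 at 90 mg/kg (Elovl6, adjusted p = 0.00772, and Me1, adjusted p = 0.0241), 1 over the 3 doses and 1 in the trend, where 353 genes in all were called at 90 mg/kg against 0. The count whose liver change differed from the other organs was 1, and it was 2 with an offset of 50, 0 with a floor of 16 and no offset, 0 with no detection filter, 0 with the lung arrays left out, and 0 to 2 with 1 array left out. The 33 vehicle comparisons ranged from 31 to 34, and from 30 to 34 with 1 array left out. Outside liver, differences near 0 at 90 mg/kg turned sign. With the mean over probes Me1 was -0.04 in testis and 0.14 in spleen, and Srebf1 was -0.02 in spleen, where cyclic loess gave -0.14. With 1 array left out, the testis ranges were -0.36 to 0.04 for Acaca, -0.03 to 0.07 for Me1, -0.51 to 0.25 for Scd1 and -0.47 to 0.01 for Elovl6. Those of spleen were -0.57 to 0.06 for Fasn, -0.17 to 0.20 for Srebf1, -1.64 to 0.37 for Thrsp, -0.60 to 0.25 for Me1, -0.79 to 0.35 for Scd1, -0.42 to 0.39 for Elovl6 and -0.85 to 0.02 for Acaca. Those of lung were -1.41 to 1.09 for Thrsp, -0.25 to 0.02 for Me1, -0.09 to 0.23 for Scd1, -0.15 to 0.19 for Acly and -0.54 to 0.13 for Elovl6. The cause of these shifts was not tested. With the replicate number as a block, 0 genes were called in each organ, 1 differed between organs and 33 vehicle comparisons passed, as without it. Deviations of same-numbered arrays correlated from -0.23 to 0.40 over 24 pairs of groups, so the numbers were not taken as pairing.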
